A study of Mus musculus with 2 samples.

Results

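The genes described here are 36 genes of protein entry and folding in the endoplasmic reticulum, taken by symbol from a fixed list out of 32286 features in the deposited count matrices; all 36 were found and all 36 passed the filter on low counts in every fit. They fall into 10 chaperones and co-chaperones, 5 genes of disulfide bond formation, 4 prolyl isomerases and collagen chaperones, 9 genes of the translocon, 2 subunits of signal peptidase, 5 subunits of oligosaccharyltransferase and the transcription factor Xbp1. They were followed in 2 single-cell libraries (10x Genomics 5′ kit) of the pooled caudal part of embryos of day 8.5, all C57BL/6J mice of wild-type genotype. The labels give no treatment and no second genotype, and they leave unsaid whether each library had its own pool of embryos. The p-values therefore measure only how differences between groups of cells varied between these 2 libraries. The overall difference between the libraries was fitted separately, as a block. Replicate 1 held 30449 barcodes and 295866003 UMIs (unique molecular identifiers, each a counted RNA molecule), and replicate 2 held 18245 barcodes and 150964773 UMIs.

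Proteins bound for secretion or for membranes are threaded through the Sec61 channel as they are made, lose their signal peptide to signal peptidase and receive sugar chains from oligosaccharyltransferase. Inside, Hspa5 (BiP), Hsp90b1 (GRP94), calreticulin and calnexin hold the unfolded chain, disulfide isomerases join cysteines, and Serpinh1 (HSP47) and Fkbp10 serve collagen. When unfolded protein accumulates, the spliced form of Xbp1 and other factors raise the transcription of many of these genes. An mRNA that encodes a secretory or membrane protein is itself translated at the reticulum surface.

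Barcodes with at least 2000 UMIs were called intact where 0.3 to 10% of UMIs came from mitochondrially encoded genes, and low-mitochondrial where under 0.3% did. There were 11244 and 8328 intact barcodes (replicates 1 and 2, median 17872.5 and 13685.5 UMIs) and 11242 and 5184 low-mitochondrial ones (median 5598.5 and 4830 UMIs). Each barcode was placed in the cell type whose marker list had the most detected genes, at least 2 and more than any other list, and the names below stand for those gates. Of 13 gates, 9 had at least 50 barcodes of each state in each library and entered the tests: caudal epiblast, presomitic mesoderm, somite, neural tube, lateral plate mesoderm, surface ectoderm, endoderm, endothelium and allantois. The libraries differed in their makeup: the blood gate held 0 and 152 intact barcodes and the extraembryonic endoderm gate 292 and 48. The 2 libraries shared 761 barcode sequences. Levels are UMIs scaled to counts per 1e6 UMIs (CPM) of all barcodes of a gate summed, and compare 1 gene between samples; they are not divided by gene length.

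The endoplasmic reticulum stress element, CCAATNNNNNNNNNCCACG, is the site through which stress factors act on several of these promoters. The RefSeq windows of 250 bases before to 50 bases after a start site (GRCm38.p6) held 30 of the 36 genes. Searched on both strands, 7 of the 30 (23.3%) carried the element, against 0.137% of the 27025 genes with a window. The 7 were the chaperones Hspa5, Hsp90b1, Calr, Canx and Dnajc3 and the disulfide-side genes Pdia6 and Creld2, and Hsp90b1 carried it at 2 places. They are printed to show where the element lies. Its fixed letters were the search pattern and are alike by construction, while the bases at N differed between genes. The element is known from several of these promoters, so its share among them is a description and not a test. The printed stretches lie upstream of the start site and run 5′ to 3′ on the gene's strand, and the capitals mark the element, in some genes as its reverse complement.
Hspa5 (chr2:34772015-34772053, plus strand): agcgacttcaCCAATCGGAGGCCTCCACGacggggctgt
Hsp90b1, distal (chr10:86705628-86705666, minus strand): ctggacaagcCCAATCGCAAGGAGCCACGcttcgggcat
Hsp90b1, proximal (chr10:86705523-86705561, minus strand): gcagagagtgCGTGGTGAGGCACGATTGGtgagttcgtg
Calr (chr8:84847065-84847103, minus strand): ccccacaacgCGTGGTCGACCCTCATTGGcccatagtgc
Canx (chr11:50325790-50325828, minus strand): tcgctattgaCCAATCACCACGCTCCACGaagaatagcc
Dnajc3 (chr14:118937817-118937855, plus strand): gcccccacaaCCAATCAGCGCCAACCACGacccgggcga
Pdia6 (chr12:17266481-17266519, plus strand): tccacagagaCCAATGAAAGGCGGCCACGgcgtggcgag
Creld2 (chr15:88819510-88819548, plus strand): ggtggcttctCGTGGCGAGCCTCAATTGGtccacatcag

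A related form, ATTGGNCCACG, lay in the window of Dnajb11 alone among the 30 genes, against 0.0444% of all genes with a window. The letters TGACGTGG, the core of a further stress element, lay in none of the 30 windows and in 0.714% of all genes. The parts CCAAT and CCACG, counted separately and including those within the full element, each lay in 23 of the 30 genes (76.7%), against 41.1% and 35.5% of all genes. A match of letters describes the window and does not show that a factor binds there.

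In intact barcodes of the 9 tested types the genes were lowest in the neural tube and highest in the endothelium. The 36 genes summed to 8755 and 8914 CPM in the neural tube (replicates 1 and 2) and to 13913 and 14000 CPM in the endothelium, which is 1.58 times as much on the means. Between them came the somite (9455 and 10325), the caudal epiblast (10117 and 9877), the presomitic mesoderm (10474 and 10980), the surface ectoderm (11503 and 11626), the lateral plate mesoderm (12395 and 12130), the endoderm (13848 and 11426) and the allantois (13285 and 13003). Among these 9 types the values of the neural tube lay under all others and did not overlap them. Somite and caudal epiblast overlapped, and so did the endoderm with every type from the surface ectoderm to the allantois (SD 1713 CPM, n = 2). In the other 8 types the SD was between 61.2 and 615 CPM.

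**Figure D1:**
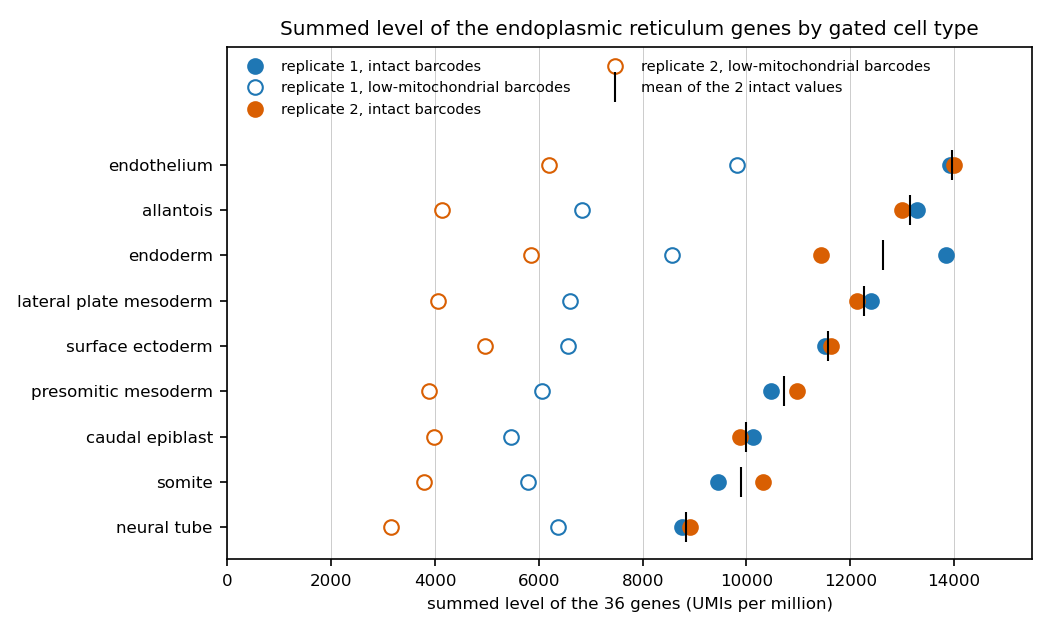
Summed level of the 36 genes, in CPM, in each of 9 gated cell types; filled points are intact barcodes, open points low-mitochondrial barcodes, blue replicate 1 and orange replicate 2, and the black tick is the mean of both intact values. The endothelium is highest at 13913 and 14000 and the neural tube lowest at 8755 and 8914, and every open point lies left of the filled points of its type.

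Of the 36 genes, 32 differed among the 9 types (edgeR quasi-likelihood F test on summed counts with library as a block, Benjamini-Hochberg adjusted over 14055 genes, threshold 0.05). The same test called 72.8% of all genes, so a difference among these cell types was common. The 4 that were not called were the chaperone Hyou1, the co-chaperones Dnajb9 and Sdf2l1, and Sec61g, the small gamma subunit of the Sec61 channel. Sec61g averaged between 502 CPM in the neural tube and 555 CPM in the surface ectoderm. The widest range belonged to Fkbp10, a prolyl isomerase of collagen folding, at 10.3 CPM in the neural tube and 62.0 CPM in the endothelium. Serpinh1 followed with 371 and 1268 CPM in the same types. For the other 34 genes the highest type was between 1.11 and 2.46 times the lowest. Without the library block the count was 18 of 36, and 45.9% of all genes were called.

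**Figure D2:**
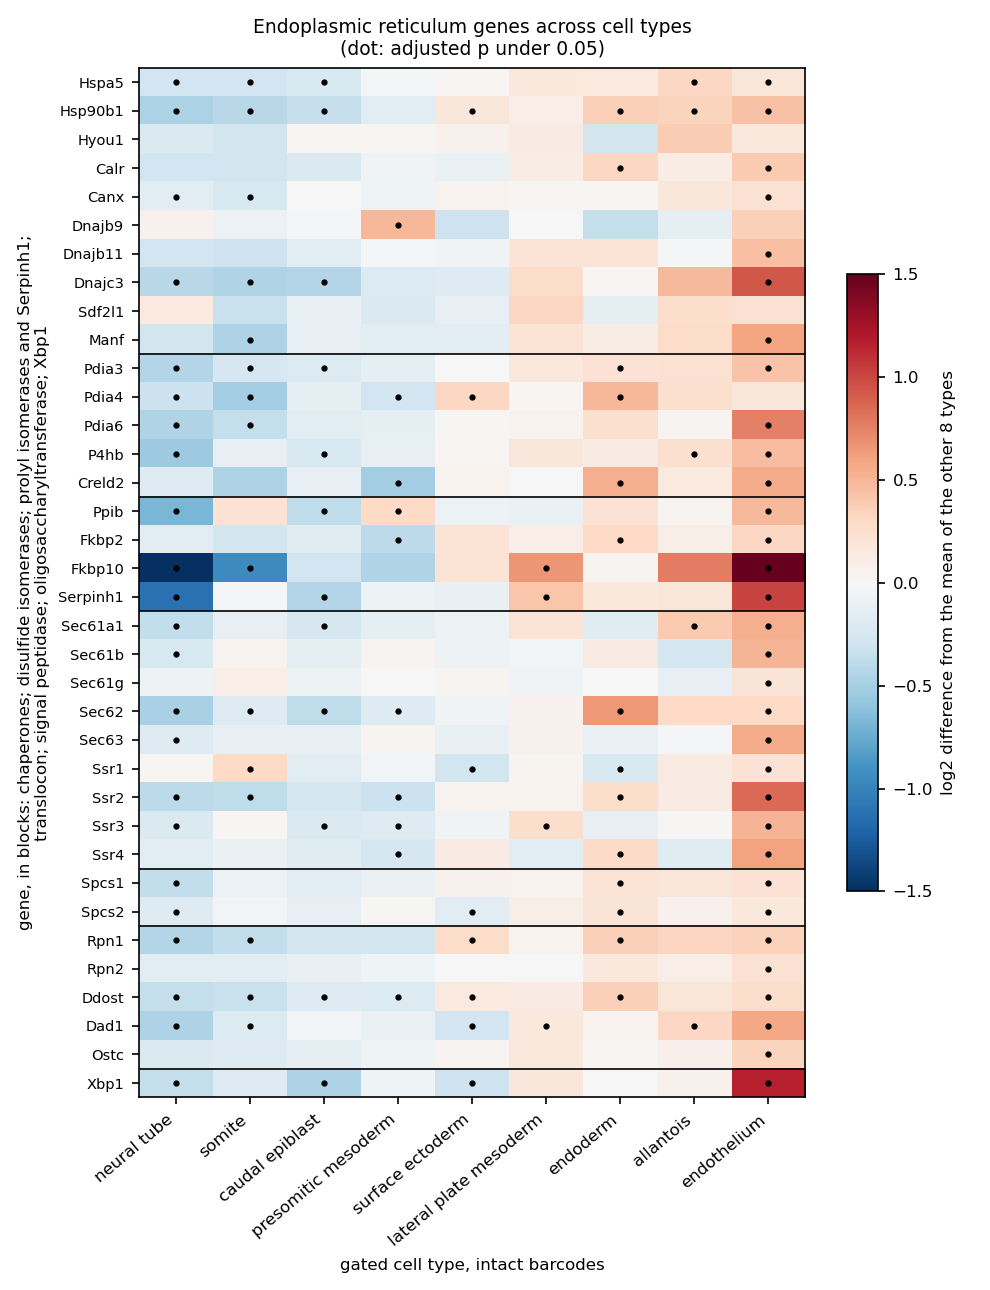
Log2 difference between each cell type (columns, ordered by summed level) and the mean of the other 8, for the 36 genes (rows, in blocks by role), in intact barcodes; red is higher, blue lower, and a dot marks an adjusted p under 0.05. The endothelium column holds 32 dots, all higher, the neural tube column 23, all lower, and the deepest colours are those of Fkbp10, Xbp1 and Serpinh1 in the endothelium and Fkbp10 and Serpinh1 in the neural tube.

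In the endothelium 32 genes were higher and 0 lower than in the mean of the other 8 types, where 25.8% of all genes were higher and 20.1% lower. The median difference of the 36 genes was 0.44 on the log2 scale, beside -0.02 for all genes. None was lower at an unadjusted p under 0.05 either, and DESeq2 also called 32 higher and 0 lower. The 4 genes not called were Hyou1, Dnajb9, Sdf2l1 and Pdia4. All 9 translocon genes, both signal peptidase subunits, all 5 oligosaccharyltransferase subunits and all 4 prolyl isomerases and collagen chaperones were called.

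Fkbp10 stood at 69.2 and 54.7 CPM in the endothelium, above the highest value of any other type (49.8). Its log2 difference was 1.49 ± 0.14 (SE, adjusted p = 1.2e-06, edgeR). Xbp1 stood at 170 and 117 CPM, again above every other value of the tested types (highest 108). Its difference was 1.17 ± 0.07 (adjusted p = 3.6e-09, edgeR). In the extraembryonic endoderm gate, which was not tested, Xbp1 stood at 154 and 48.0 CPM. Serpinh1 stood at 1256 and 1281 CPM against at most 967 in the other tested types, a difference of 1.01 ± 0.09 (adjusted p = 2.9e-07, edgeR). Of the gates not tested, the intermediate mesoderm held 817 and 1269 CPM of Serpinh1 and the extraembryonic endoderm 482 and 1039. Fkbp10, Xbp1 and Serpinh1, 2 for collagen and 1 stress regulator, changed most.

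The endothelium call depends on scaling for the smaller differences. With library totals in place of trimmed means the median over all genes moved from -0.02 to -0.15, and 21 of the 36 genes were called higher; over all genes the split went from 3620 higher and 2823 lower to 2816 and 4188. All 36 genes kept a positive difference under that scaling. A list of 16 matrix and collagen genes, whose proteins are made at the reticulum, summed to 2717 and 3120 CPM in the endothelium. In the other tested types it summed to 575 to 2052 CPM, and its part in the result was not tested. The blood markers summed to 3.61 and 38.3 CPM in the endothelium gate, against 0.53 to 4.89 and 26.2 to 36.3 CPM in the other 8 gates.

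In the neural tube 23 genes were lower and 0 higher, where 14.4% of all genes were lower and 16.6% higher. The median difference of the 36 genes was -0.28, beside 0.01 for all genes. None was higher at an unadjusted p under 0.05, and DESeq2 gave the same counts of 23 and 0. Without the library block 9 were lower, and 15.8% of all genes were called. Disulfide isomerases (4 of 5), prolyl isomerases and collagen chaperones (3 of 4) and translocon genes (6 of 9) took part, as did 4 of the 10 chaperones.

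Fkbp10 stood at 15.0 and 5.74 CPM in the neural tube, a difference of -1.49 ± 0.20 (SE, adjusted p = 7.5e-05, edgeR). Its higher value overlapped the lowest of the other tested types (12.1). Serpinh1 stood at 306 and 435 CPM, under every other value of the tested types (lowest 545). Its difference was -1.12 ± 0.10 (adjusted p = 3.6e-06, edgeR). Ppib, a prolyl isomerase that works beside Serpinh1 on collagen, stood at 387 and 310 CPM. It too lay under every other value of the tested types (lowest 397), with a difference of -0.68 ± 0.09 (adjusted p = 8.4e-05, edgeR). Among the tested types the matrix and collagen list was lowest there too, at 575 and 683 CPM, and its part in the result was not tested. Caudal epiblast markers summed to 296 and 258 CPM in the neural tube gate beside 461 and 531 CPM of its own. Their part in the result was not tested either.

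In the somite 14 genes were lower and 1 higher, where 10.9% of all genes were lower and 11.7% higher. Fkbp10 stood at 17.3 and 12.1 CPM (-0.95 on the log2 scale), the disulfide isomerase Pdia4 at 128 and 153 CPM (-0.50), and the secreted folding factor Manf at 217 and 216 CPM (-0.46). Manf in both somite libraries lay under all other values of the tested types (lowest 238). Of the gates not tested, the notochord held 149 and 217 CPM of Manf and the extraembryonic endoderm 465 and 187. The intermediate mesoderm held 276 and 359 CPM, and the blood gate of replicate 2 held 90.3 CPM. Ssr1, a subunit of the translocon-associated complex, was the gene that was higher, at 113 and 129 CPM (0.29). Without the library block 1 of the 36 genes was called, and 9.17% of all genes.

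In the caudal epiblast, the region that holds the progenitors of the growing axis, 12 genes were lower and 0 higher, where 6.28% of all genes were lower and 9.64% higher. None was higher at an unadjusted p under 0.05, and DESeq2 called 14 lower and 0 higher. Xbp1 stood at 71.6 and 44.8 CPM (-0.46), Serpinh1 at 545 and 595 (-0.44) and the co-chaperone Dnajc3 at 74.5 and 80.3 (-0.44). With a narrower mitochondrial window of 0.6 to 1.2%, chosen after seeing the data, 7 were called (15.5% of all genes), and without the library block 1 (4.78%).

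In the presomitic mesoderm, which forms the somites, 8 genes were lower and 2 higher, where 9.61% of all genes were lower and 10.1% higher. Creld2 stood at 56.6 and 64.6 CPM (-0.52), the prolyl isomerase Fkbp2 at 62.5 and 62.8 (-0.39) and the translocon-associated Ssr2 at 212 and 205 (-0.32). Dnajb9, a BiP co-chaperone, was higher at 28.2 and 24.1 CPM (0.50), and Ppib at 638 and 652 CPM (0.30). Without replicate 1 the median of the 36 genes was -0.02, against -0.11 over both libraries. Without the library block none was called (7.065% of all genes). With the stricter gate 6 were called (20.2%), and 6 with the window of 0.6 to 1.2% (17.7%).

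In the lateral plate mesoderm 4 genes were higher and 0 lower, where 7.89% of all genes were higher and 4.59% lower. At an unadjusted p under 0.05, 12 were higher and 1 lower, and DESeq2 called 4 higher and 1 lower. Fkbp10 stood at 48.0 and 34.3 CPM (0.67), Serpinh1 at 964 and 967 (0.42) and the translocon-associated Ssr3 at 292 and 245 (0.26). Dad1, a small subunit of oligosaccharyltransferase, was the fourth. The count was 8 with library totals (13.2% of all genes), 10 without the filter on low counts (9.4%) and 0 without the library block (5.49%).

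In the surface ectoderm 4 genes were higher and 4 lower, where 18.2% of all genes were higher and 11.8% lower, so the 36 genes were called no more often than others. Pdia4 stood at 215 and 267 CPM (0.31), the oligosaccharyltransferase subunit Rpn1 at 233 and 250 (0.28) and Hsp90b1 at 1111 and 1362 (0.17). Xbp1 was lower at 80.7 and 48.5 CPM (-0.31), Dad1 at 266 and 220 (-0.29) and Ssr1 at 89.2 and 86.7 (-0.28). DESeq2 called 1 higher and 4 lower, and 31.4% of all genes. Without the library block none of the 36 was called, and 15.8% of all genes.

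In the endoderm 13 genes were higher and 1 lower, where 23.9% of all genes were higher and 17.4% lower. Sec62, a membrane partner of the Sec61 channel, stood at 177 and 170 CPM, above every other value of the tested types (highest 164). Its difference was 0.66 ± 0.06 (SE, adjusted p = 1.2e-06, edgeR). In the extraembryonic endoderm gate, which was not tested, Sec62 stood at 148 and 240 CPM. Creld2 stood at 147 and 80.2 CPM (0.54) and Pdia4 at 275 and 250 (0.50), and Ssr1 was lower at 90.2 and 88.6 (-0.23). The median of the 36 genes was 0.15 over both libraries, 0.32 without replicate 2 and -0.01 without replicate 1, so the rise rested on replicate 1. The endoderm markers summed to 2078 CPM in replicate 1 and 1155 CPM in replicate 2, and 5 nuclear-retained RNAs to 1263 and 2901 CPM; their part in the result was not tested. Without the library block 4 genes were called (24.6% of all genes), and 19 with the window of 0.6 to 1.2% (35.85%).

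In the allantois, with 78 and 62 intact barcodes the smallest gate tested, 5 genes were higher and 0 lower, where 2.9% of all genes were higher and 2.31% lower. At an unadjusted p under 0.05, 13 were higher and 1 lower, and DESeq2 called 10 higher and 0 lower. Sec61a1, the pore subunit of the channel, stood at 288 and 214 CPM (0.39), Hsp90b1 at 1290 and 1529 (0.34) and Dad1 at 394 and 333 (0.31). The count was 9 with library totals, where the split over all genes went from 407 higher and 324 lower to 540 and 156. It was 3 with gates drawn at equal depth (11.5% of all genes) and 0 without the library block (2.54%). Lateral plate markers summed to 587 and 472 CPM in the allantois gate beside 895 and 573 CPM of its own, and their part in the result was not tested.

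The level of the main chaperones by type, as means of both libraries in intact barcodes, followed the same order with exceptions. Hspa5 averaged 713 CPM in the somite, 721 in the neural tube, 759 in the caudal epiblast, 856 in the presomitic mesoderm, 895 in the endothelium, 903 in the surface ectoderm, 953 in the endoderm, 970 in the lateral plate mesoderm and 1104 in the allantois. Its level in the allantois (1118 and 1090) lay above all other values of the tested types, and it was not highest in the endothelium. In the intermediate mesoderm gate, which was not tested, Hspa5 stood at 1122 and 1092 CPM. Hsp90b1 averaged 802 CPM in the neural tube, 830 in the somite, 883 in the caudal epiblast, 984 in the presomitic mesoderm, 1176 in the lateral plate mesoderm, 1236 in the surface ectoderm, 1323 in the endothelium, 1358 in the endoderm and 1410 in the allantois. The libraries differed by as much as neighbouring types did, with an SD of up to 222 CPM. Calr averaged 310 CPM in the neural tube, 311 in the somite, 330 in the caudal epiblast, 359 in the surface ectoderm, 365 in the presomitic mesoderm, 402 in the lateral plate mesoderm, 418 in the allantois, 435 in the endothelium and 444 in the endoderm. The SD between libraries reached 86.5 CPM, more than the step between any neighbours in that order.

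Of the collagen-side genes, Ppib averaged 348 CPM in the neural tube, 427 in the caudal epiblast, 510 in the lateral plate mesoderm, 516 in the surface ectoderm, 577 in the allantois, 600 in the somite, 616 in the endoderm, 645 in the presomitic mesoderm and 666 in the endothelium. It was thus high in the paraxial types, in which Serpinh1 was not. Serpinh1 averaged 371 CPM in the neural tube, 570 in the caudal epiblast, 714 in the presomitic mesoderm, 714 in the surface ectoderm, 722 in the somite, 819 in the endoderm, 869 in the allantois, 966 in the lateral plate mesoderm and 1268 in the endothelium. Both ends of that order stood clear of the values next to them.

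Of the translocon and glycosylation genes, Sec61b averaged 488 CPM in the neural tube, 517 in the allantois, 536 in the caudal epiblast, 563 in the surface ectoderm, 570 in the lateral plate mesoderm, 580 in the somite, 588 in the presomitic mesoderm, 636 in the endoderm and 726 in the endothelium. Ssr4, another subunit of the translocon-associated complex, averaged 133 CPM in the presomitic mesoderm, 139 in the neural tube, 140 in the caudal epiblast, 142 in the somite, 142 in the lateral plate mesoderm, 146 in the allantois, 169 in the surface ectoderm, 187 in the endoderm and 206 in the endothelium. The lowest 6 averages of Ssr4 lay closer together than the SD between libraries (at least 20.6 CPM). Ssr4 was higher in replicate 1 in each of the types, so that SD includes the overall difference between the libraries. Rpn1 averaged 152 CPM in the neural tube, 157 in the somite, 171 in the caudal epiblast, 171 in the presomitic mesoderm, 209 in the lateral plate mesoderm, 229 in the endothelium, 241 in the surface ectoderm, 246 in the endoderm and 257 in the allantois. Xbp1 averaged 58.2 CPM in the caudal epiblast, 61.3 in the neural tube, 64.6 in the surface ectoderm, 66.2 in the somite, 73.7 in the presomitic mesoderm, 76.7 in the endoderm, 84.3 in the allantois, 86.3 in the lateral plate mesoderm and 143 in the endothelium. Xbp1 was higher in replicate 1 in each of these types, with an SD of up to 46.9% of the mean, and the endothelium stood above the rest within each library.

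The 4 gates too small for a test gave single values, with exact Poisson intervals that cover counting error only. The blood gate of replicate 2 (152 barcodes) had 4345 CPM of the 36 genes (95% interval 4275 to 4417), under every fitted type. Globin transcripts made up 26.6% of its UMIs, and leaving them out of the total gave 5922 CPM. All 36 genes were found there. The extraembryonic endoderm gate had 12995 (12911 to 13080) and 11968 CPM (11688 to 12252), the intermediate mesoderm gate 11602 (11331 to 11877) and 12880 (12711 to 13051), and the notochord gate 11166 (10929 to 11407) and 9946 (9642 to 10258). Between the libraries these intervals did not overlap, so counting error alone does not cover the spread.

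Other genes of the reticulum, a list of 38 of which 37 were tested (chosen with earlier results of these data known), moved alongside in the outer types. In the neural tube 16 were lower and 0 higher, where 14.4% of all genes were lower and 16.6% higher. In the endothelium 18 were higher and 2 lower, where 25.8% of all genes were higher and 20.1% lower. In the endoderm 13 were higher and 5 lower, where 23.9% of all genes were higher and 17.4% lower. The rise in the endothelium was not limited to reticulum genes. Of 25 nuclear-encoded mitochondrial genes 13 were higher there and 3 lower. In the neural tube 3 of them were higher and 2 lower, and in the endoderm 4 and 7. Of a list of 20 cytosolic chaperones, 8 were higher and 1 lower in the neural tube, 15 were lower and 0 higher in the endoderm, and 8 were higher and 2 lower in the endothelium. Of the cytosolic counterparts, Hspa8 ranged from 3130 to 4405 CPM over the 18 values, Hsp90ab1 from 7015 to 8274 and Ppia from 4929 to 6311. Fkbp1a alone stood out in the endothelium, at 1299 and 1027 CPM against 492 to 760 in the other tested types. Its log2 difference was 1.04 ± 0.06 (SE, adjusted p = 7.8e-09, edgeR).

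Among 3304 genes with a mean of at least 50 CPM outside the 36, the pattern most like their sum over the 18 type and library values (Pearson's r of log2 CPM, a description) was that of Rer1 (0.95), a receptor that retains membrane proteins in the early secretory pathway. Itgb1, an integrin chain, followed with 0.92, then Nucb1 with 0.92 and Pofut2, a sugar transferase of the reticulum, with 0.91. Of the 34 members above the same limit, the closest to their sum were Pdia3 (0.97), P4hb (0.95) and Pdia6 (0.93), and the least alike were Ssr1 (0.05), Sec61g (0.28) and Hyou1 (0.36). The 18 points share 2 libraries and 9 gates, and each member is part of the sum.

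Low-mitochondrial barcodes of the same gates held a much smaller share of these transcripts. Hsp90b1, Hspa5 and Hyou1 were reduced most, and Sec61b and Sec61g were higher. The summed level was 0.515 to 0.727 of the intact level in replicate 1 and 0.318 to 0.511 in replicate 2 over the 9 types. In the fit over both libraries, 30 genes were lower and 4 higher, where 33.9% of all 13543 genes were lower and 22.2% higher. The median log2 difference was -1.05, beside -0.17 for all genes. The p-values treat 18 pairs of sums as separate although they come from 2 libraries, so they are smaller than 2 libraries can support. With 1 sum per library and state, 29 genes were lower and 4 higher, and 47.8% of all genes were called. The deficit was deeper in replicate 2 (median -1.61, replicate 1 left out) than in replicate 1 (-0.66, replicate 2 left out). With both states held to 4000 to 8000 UMIs, which left 3 types, the median was -1.38.

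By role, the 10 chaperones together stood at a median of 0.347 of the intact level in replicate 1 and 0.134 in replicate 2 over the 9 types. The disulfide-side genes stood at 0.417 and 0.165, the prolyl isomerases and collagen chaperones at 0.666 and 0.447, oligosaccharyltransferase at 0.660 and 0.506, signal peptidase at 0.792 and 0.685 and the translocon at 0.906 and 0.843. These are ratios of summed levels, in which the genes with most UMIs weigh most: of the 9 translocon genes 6 were lower and 2, Sec61b and Sec61g, higher, with a median log2 difference over the genes of -0.81. Of the signal peptidase subunits Spcs2 was lower (ratio 0.551) and Spcs1 higher (1.11). Xbp1, whose product is a soluble transcription factor, stood at 0.453 and 0.328. The order of the roles was nearly the same in both libraries.

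Hsp90b1 had medians over the 9 types of 1060 and 1292 CPM in intact and 285 and 124 CPM in low-mitochondrial barcodes (replicates 1 and 2). Its ratio was below 1 in 18 of 18 pairs, and its log2 difference was -2.16 ± 0.14 (SE, adjusted p = 2.1e-12, edgeR). Hspa5 went from 863 and 833 CPM to 236 and 82.4 CPM, and its ratio ran from 0.0221 to 0.472 over the 18 pairs (-2.16 ± 0.16, adjusted p = 2.8e-11, edgeR). Hyou1, a large relative of Hspa5 that exchanges its nucleotide, went from 107 and 151.3 CPM to 36.3 and 11.8 CPM (-2.08 ± 0.17, adjusted p = 7.8e-11, edgeR). The states did not overlap within a type for any of these 3 genes. Pdia4 followed with -1.72 and Canx with -1.65, both below 1 in 18 of 18 pairs.

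At the other end stood the smallest proteins. Sec61g had medians of 558 and 506 CPM in intact and 689 and 662 CPM in low-mitochondrial barcodes, with a ratio above 1 in 18 of 18 pairs (0.51 ± 0.03 SE, adjusted p = 1.1e-13, edgeR). Sec61b went from 618 and 503 CPM to 715 and 635 CPM, also above 1 in 18 of 18 pairs (0.40 ± 0.03, adjusted p = 2.5e-10, edgeR). Both kept a positive difference with library totals (0.34 and 0.22). Spcs1 (0.15, ratio below 1 in 8 of 18 pairs) and Dad1 (0.14, below 1 in 10 of 18) were called higher with trimmed means but had differences of -0.03 and -0.04 with library totals, which did not pass. Ssr4 (0.02) and Ostc (0.01) were not called with trimmed means and were lower with library totals (-0.16 and -0.17). The change of scaling moved the median over all genes from -0.17 to -0.34 and the split over all genes from 3000 higher and 4589 lower to 1423 and 6097.

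**Figure D3:**
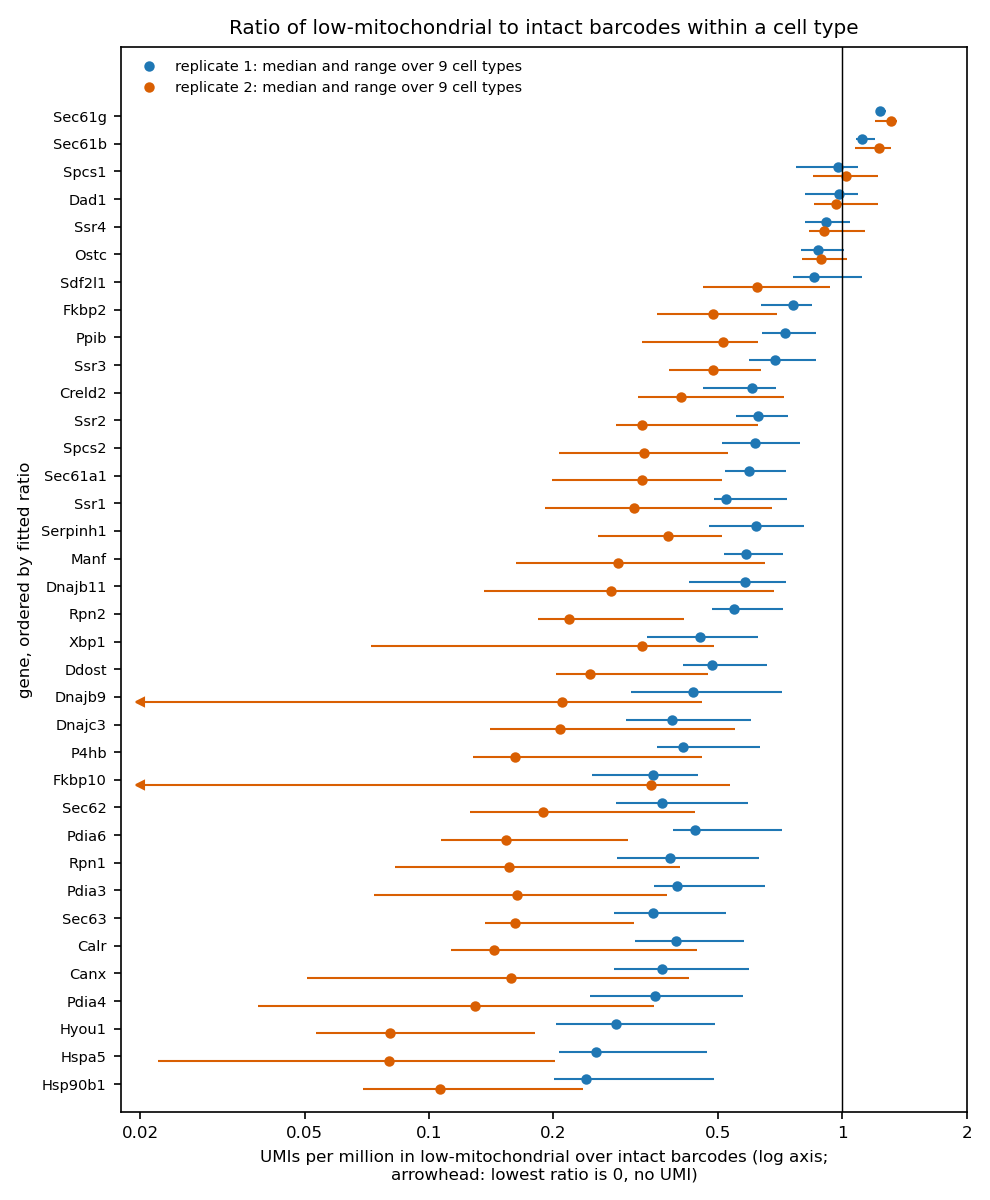
Level in low-mitochondrial over level in intact barcodes of the same cell type for each of the 36 genes (log axis, ordered by the fitted ratio); points are medians and lines ranges over 9 types, blue replicate 1 and orange replicate 2, and an arrowhead marks a type with no UMI. Hspa5, Hsp90b1 and Hyou1 lie lowest and Sec61g and Sec61b stay above 1 in all 18 pairs, and most orange points lie left of the blue ones.

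Between these ends the fitted ratio rose gradually. Calr stood at 0.330, Sec63, a BiP partner at the channel, at 0.331, Pdia3 at 0.347, Rpn1 at 0.353, Pdia6 at 0.356, Sec62 at 0.360, Fkbp10 at 0.364, P4hb at 0.364 and Dnajc3 at 0.383. Dnajb9 (0.417), Ddost (0.445), Xbp1 (0.458), Rpn2 (0.465), Dnajb11 (0.501), Manf (0.523), Serpinh1 (0.538), Ssr1 (0.539), Sec61a1 (0.549), Spcs2 (0.551), Ssr2 (0.571) and Creld2 (0.593) lay in the middle. Ssr3 (0.677), Ppib (0.699), Fkbp2 (0.717) and Sdf2l1 (0.866) were the least reduced of the 30 called lower. Ostc, given above, stood at 1.01 with trimmed means and 0.890 with library totals. Subunits of 1 complex thus did not move together: within oligosaccharyltransferase Rpn1 stood at 0.353 and Dad1 at 1.10, and within the Sec61 channel Sec61a1 stood at 0.549 and Sec61g at 1.43. These differences between subunits were not tested.

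Whether the ratio differs among the cell types could not be settled with these libraries. A test of the interaction of state and type, added after seeing the data, called 0 of the 36 genes, 0 of them at an unadjusted p under 0.05, and 0.0148% of all genes (edgeR). That test has an additive library term, so the deeper deficit of replicate 2 enters its error, and it does not show that the types are alike. The summed chaperones stood at 0.470 and 0.325 of the intact level in the endoderm (replicates 1 and 2) and at 0.535 and 0.227 in the endothelium. They stood at 0.301 and 0.122 in the presomitic mesoderm, 0.320 and 0.126 in the lateral plate mesoderm and 0.545 and 0.105 in the neural tube, which was highest in replicate 1 and lowest in replicate 2. The mean ratio of Hspa5 ran from 0.141 in the allantois to 0.337 in the endothelium, and that of Rpn1 from 0.198 in the allantois to 0.474 in the endoderm.

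The difference followed the length of the encoded protein. Over the 36 genes Pearson's r between the log2 difference and the log2 protein length was -0.91 (Spearman's rho -0.90), and over 12749 other genes it was -0.41 (rho -0.47), given as descriptions across genes that share libraries. Transcript length gave -0.79 in the 36 genes and -0.40 in the others. Lengths are those of the GENCODE M21 models on GRCm38. The lowest 3 genes encode proteins of 802 (Hsp90b1), 655 (Hspa5) and 999 residues (Hyou1), and the highest 4 encode 68 (Sec61g), 96 (Sec61b), 102 (Spcs1) and 113 residues (Dad1).

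Other genes showed a gradient of the same sign, and it differed with the start of the protein. A stretch of 12 residues with a mean Kyte-Doolittle hydropathy of at least 2 within the first 40 residues, as signal peptides and early membrane segments have, was present in 26 of the 36 genes. Of the 10 without it by this measure, several enter the membrane by a later segment, and P4hb (1.98) and Dad1 (1.95) fell just under the limit. Other genes with such a stretch had a median difference of -0.92 (2085 genes), and those without it -0.06 (10664 genes). By length, other genes with the stretch went from 0.02 at up to 150 residues through -0.42, -0.85 and -1.16 to -1.77 at over 800 residues. Those without it went from 0.34 to -0.54.

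Members with the stretch had medians of -0.17 (2 genes of up to 150 residues), -0.81 (7 of up to 300), -0.998 (7 of up to 500), -1.56 (8 of up to 800) and -2.12 (2 of over 800). They lay below the medians of the other genes of like length and start, but between the lower and upper quartiles of those genes. Among the 10 members without it, the 4 of up to 150 residues had a median of 0.27, near the 0.34 of other such genes. The next 3, of up to 300 residues, had -0.86 against 0.20, Sec62 had -1.47 against 0.03 in the bin up to 500 residues, and those in the bin up to 800 residues, P4hb and Fkbp10, -1.46 against -0.16.

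**Figure D4:**
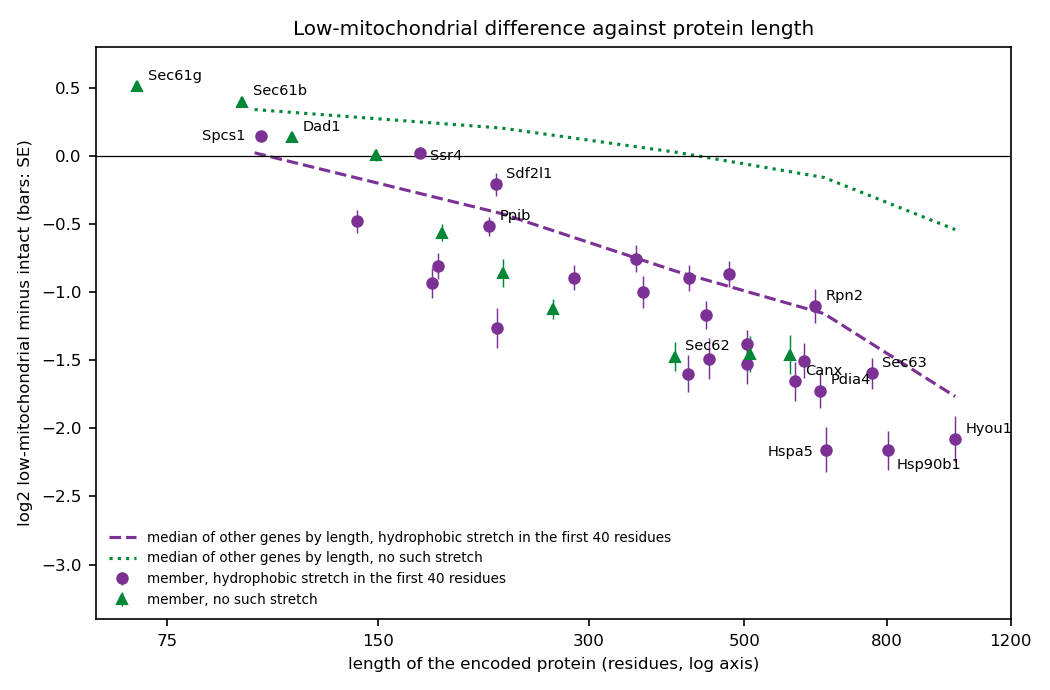
Log2 difference between low-mitochondrial and intact barcodes (bars are SE) against the length of the encoded protein (log axis) for the 36 genes; circles have a hydrophobic stretch in the first 40 residues, triangles do not, and lines join the medians of all other genes of each kind by length. The points fall from Sec61g at 0.51 to Hsp90b1 at -2.16, and the dashed line of other genes with such a stretch falls from 0.02 to -1.77.

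The 8 members with either stress element in their window had a median difference of -1.54, and the 22 with a window but no element -0.89. The element-bearing genes are also among the longer ones, and the part of either was not tested.

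Other gene lists gave the following counts in low-mitochondrial barcodes. Of the 37 other reticulum genes 31 were lower and 4 higher (median -1.31), and of the 16 matrix and collagen genes all 16 were lower (median -2.15). Of the 20 cytosolic chaperones 16 were higher and 1 lower (median 0.27), and 13 higher and 5 lower with library totals. Of 25 nuclear-encoded mitochondrial genes 22 were higher and 3 lower, and 13 higher and 3 lower with library totals. All 5 nuclear-retained RNAs were lower (median -1.67). Of the cytosolic relatives of members, Hspa8 had a ratio of 1.201, Ppia 1.37 and Fkbp1a 1.26, each higher under both scalings. Hsp90ab1 had 1.07 with trimmed means and 0.947 with library totals, so its direction depended on scaling, while its relative Hsp90b1 stood at 0.224.

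The level changed gradually with the mitochondrial share rather than at the 0.3% line. In replicate 1 the 36 genes summed to 5878 CPM in barcodes under 0.05% mitochondrial UMIs, 6213 at 0.05 to 0.1%, 6494 at 0.1 to 0.2%, 7868 at 0.2 to 0.3%, 9158 at 0.3 to 0.4%, 10285 at 0.4 to 0.6%, 11183 at 0.6 to 1%, 12231 at 1 to 2% and 12497 at 2 to 5%. In replicate 2 the same bins gave 3856, 4007, 4294, 5701, 7129, 8958, 9904, 11814 and 14417 CPM. The level thus rose within the intact range as well as across the line. At 5 to 10%, with 63 and 65 barcodes, it was lower again, at 9729 and 13666 CPM. In barcodes of 4000 to 8000 UMIs it rose from 5764 to 12591 CPM in replicate 1 and from 3790 to 16021 CPM in replicate 2 over the same bins. The 20 cytosolic chaperones went from 28458 to 24263 CPM and from 27955 to 23365 CPM over these bins at all depths.

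**Figure D5:**
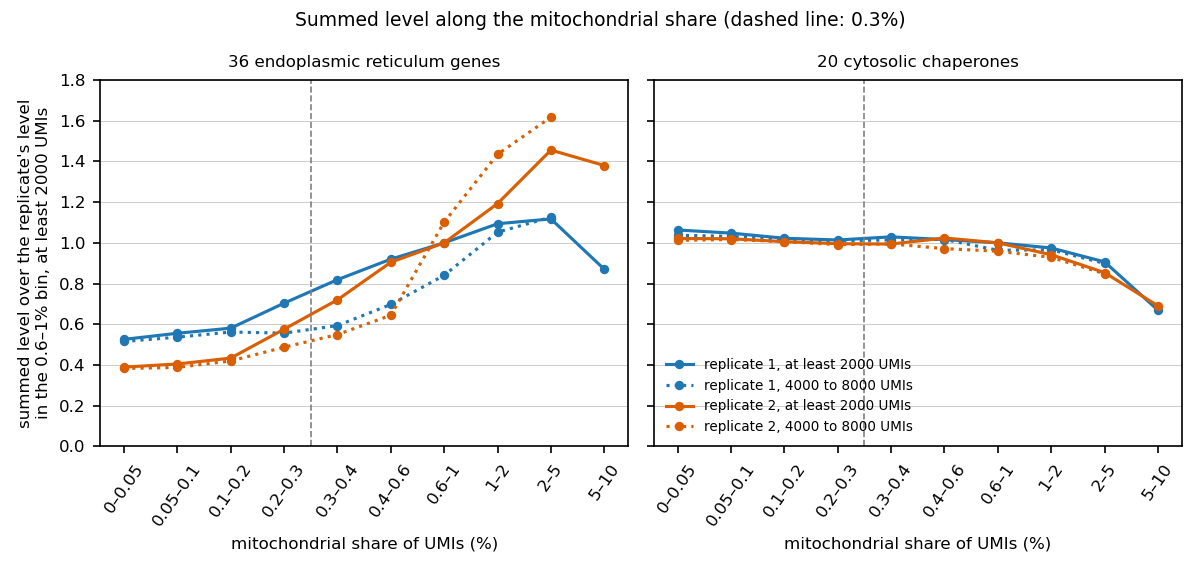
Summed level in bins of the mitochondrial share of UMIs, over the same replicate's level in the 0.6 to 1% bin, for the 36 reticulum genes (left) and 20 cytosolic chaperones (right); solid lines are all barcodes of at least 2000 UMIs, dotted lines those of 4000 to 8000, blue replicate 1 and orange replicate 2. The reticulum genes climb across the dashed 0.3% line without a single step, from 5878 to 12497 CPM and from 3856 to 14417 CPM up to the 2 to 5% bin, while the cytosolic chaperones fall slightly.

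The median mitochondrial share of the cell types ran from 0.725% (endothelium) to 1.06% (presomitic mesoderm) in replicate 1 and from 0.971% (caudal epiblast) to 1.48% (endoderm) in replicate 2. Across the 9 types the summed level had a Pearson's r with that share of -0.10 in replicate 1 and 0.62 in replicate 2, given as a description. Intact barcodes were also limited to 0.6 to 1.2%, chosen after seeing the data. The neural tube (8664 CPM) and the endothelium (13578 CPM) then remained the lowest and the highest of the 8 types left. In them 23 and 33 genes were called, where 26.8% and 44.7% of all genes were.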

How the data were processed

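Single-cell RNA was measured in 2 libraries of 1 group. The authors deposited UMI counts per gene and barcode as filtered matrices; Cell Ranger 6.1.1 and the mm10 build are named per the submitters' processing notes. The counting of reads shared by near-identical genes is not stated there. Barcodes were gated with 88 markers in 13 lists, and counts were summed per gate, state and library. Sums were fitted with edgeR 4.0.16 (R 4.3.3): trimmed-mean scaling, filterByExpr, quasi-likelihood tests with library as a block, and Benjamini-Hochberg adjustment over all genes at 0.05. The replicate numbers name the library each gate came from, which is the pairing behind the block. DESeq2 1.42.0, other scalings, filters, gates and depth windows were alternatives. The fit was tested on simulated counts with known changes, drawn independently and without a difference between libraries. That run does not cover the dependence among sums of the same library. Doublets called by Scrublet were kept, except in an alternative; it marked 8.63% and 3.28% of intact barcodes but only 0.154% of low-mitochondrial barcodes in replicate 2, where it cannot be taken to have worked. The members and lists were chosen with earlier results of these data known. Named in each contrast were up to 3 called genes per direction with the largest change, 9 fixed genes in every type, the 5 lowest and 5 highest low-mitochondrial ratios, 4 cytosolic counterparts and the 5 genes most like the sum, of which 1 is not reported here; others were named to account for every member. Depth limits precision most in the allantois gate.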

Additional observations from a re-analysis of the deposited data

How the results depend on the processing

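The library block mattered most for the differences between cell types. Without the replicate block, 18 of the 36 genes differed among types in place of 32, and 45.9% of all genes in place of 72.8%. Shares of all genes called are given in brackets below. The calls per type were 1 in the caudal epiblast (4.78%), 0 in the presomitic mesoderm (7.065%), 1 in the somite (9.17%) and 9 in the neural tube (15.8%). They were 0 in the lateral plate mesoderm (5.49%), 0 in the surface ectoderm (15.8%), 4 in the endoderm (24.6%), 20 in the endothelium (30.85%) and 0 in the allantois (2.54%). Library totals gave 8 in the lateral plate mesoderm (13.2%), 21 in the endothelium (49.8%) and 9 in the allantois (4.95%). Without the filter on low counts there were 10 in the lateral plate mesoderm (9.4%) and 8 in the allantois (3.9%). DESeq2's size factors gave 5 in the surface ectoderm (30.85%) and 8 in the allantois (5.0%), and DESeq2 itself 5 (31.4%) and 10 (6.94%). Gates on thinned barcodes gave 5 (25.5%) and 3 (11.5%) in the same types, and an intact window of 0.5 to 5% gave 8 in the allantois (5.1%). A gate of 3 markers gave 6 in the presomitic mesoderm (20.2%). The window of 0.6 to 1.2%, added after seeing the data, gave 7 in the caudal epiblast (15.5%) and 6 in the presomitic mesoderm (17.7%). The cause of these changes was not tested. The highest over the lowest summed level was 1.61 with a gate of 3 markers and 1.62 without Scrublet calls, and the level at 0.4 to 0.6% over that at 0.1 to 0.2% was 1.39 at 4000 to 8000 UMIs, less than over all depths. The surface ectoderm median changed sign between the libraries (-0.022 without replicate 1, 0.014 without replicate 2) and with thinned gates (-0.060), and with library totals Ssr4 (-0.16), Ostc (-0.17), Dad1 (-0.035) and Spcs1 (-0.028) changed sign between low-mitochondrial and intact barcodes. Of 640 values of named members under the alternatives, 586 were counted as unchanged. For an alternative with a test this meant the same side of the threshold, with no change of sign where either fit called the gene. For a left-out library it meant a distance from the main value under the SD of the leave-out values. That is a loose limit with so few values. Leaving out a library gave values without a test. The stricter gate left 8 types for the type comparison and 4 for the low-mitochondrial one.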
